A study of Mus musculus with 6 samples.

Results

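A nuclear copy of mitochondrial DNA on mouse chromosome 1 was examined in RNA-seq counts of the heart. Its members were all genes of the count table on chromosome 1 that start between positions 24610000 and 24618000 of the mm10 genome, the window that holds Gm29216. This gave 7 of the 54532 genes in the table, each annotated as an unprocessed pseudogene on the minus strand. The window was chosen by the counts of Gm29216, compared between the genotypes in these same hearts, so genotype values of the 7 genes are given as a description. Test calls among them appear only in the closing section, and nothing is read from them. All 7 passed the filter on low counts, as did 14866 genes in total. The study sequenced RNA from the whole heart of 3 male mice per genotype, aged 3 months, on a C57BL/6 background. Control mice (α1r/rα2s/s, mice 368, 369 and 370) carried the rodent Na/K-ATPase α1, which binds cardiotonic steroids (CTS) with low affinity. The other mice (α1s/sα2s/s, mice 379, 380 and 381) carried engineered amino acid substitutions that made α1 sensitive to CTS, and both genotypes carried the sensitive α2 (α2s/s). The α1 allele was not restricted to the heart, and no treatment was given in the labels. The study described its control mice in general as littermates, and those used for RNA-seq as age-matched. Nothing in the labels places mice of the 2 genotypes in pairs or in batches.

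Pieces of mitochondrial DNA have been inserted into nuclear chromosomes many times in evolution, and the inserted copies are known as nuclear mitochondrial segments. The mitochondrial genome itself is circular, is present in many copies per cardiomyocyte and is transcribed as long RNAs that are cut into the messenger, ribosomal and transfer RNAs of the respiratory chain and its translation. Where a nuclear copy is identical to its mitochondrial source, a short read from either of them has the same letters, so that its origin cannot be read from its sequence alone.

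The 7 genes followed the order of the mitochondrial genome in reverse. Gm29216 (chr1:24615706-24616197, 492 bases) matched the end of mt-Co1, the gene of cytochrome c oxidase subunit 1. Gm28661 (chr1:24614885-24615565, 681 bases) matched mt-Co2 and Gm28437 (chr1:24613189-24613971, 783 bases) matched mt-Co3, which encode subunits 2 and 3 of the same enzyme. Gm10925 (chr1:24613974-24614651, 678 bases) matched mt-Atp6, the gene of an ATP synthase subunit. Gm28438 (chr1:24612775-24613119, 345 bases), Gm10222 (chr1:24612407-24612700, 294 bases) and Gm28439 (chr1:24611535-24612410, 876 bases) matched mt-Nd3, mt-Nd4l and mt-Nd4, which encode subunits of complex I (NADH dehydrogenase). Together the matches ran from position 6390 to 11042 of the mitochondrial genome, a stretch of 4653 bases, and from 24611535 to 24616188 on chromosome 1, a stretch of 4654 bases. The number of bases between neighbouring genes was the same on both molecules in 5 of 6 intervals. The exception lay between Gm28438 and Gm10222, with 74 bases on chromosome 1 and 73 on the mitochondrial genome. Gm10222 and Gm28439 overlapped by 4 bases, as mt-Nd4l and mt-Nd4 do over the aligned part.

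Of 4140 aligned bases in the 7 genes, 4138 were identical to the mitochondrial gene (99.95%), and 5 genes held no difference. The substitutions are written with the mitochondrial base first, the position counted from 1 at the first base of the mitochondrial gene, and the base of the copy last. Gm29216 carried A1066T relative to mt-Co1, and Gm28438 carried T3C relative to mt-Nd3. The first 9 bases of Gm29216 lay outside the alignment, and 5 of them differed from the corresponding bases of mt-Co1. A1066T is base 13 of Gm29216, near that edge, so its count as a difference inside the copy depends on where the local alignment began. The start of Gm29216 (chr1:24616078-24616197, minus strand) is shown with the corresponding part of mt-Co1 (chrMT:6381-6500, plus strand), because it holds the edge of the copied stretch. Both are from the GENCODE M21 transcripts of GRCm38, the assembly of mm10, and capitals mark the bases that differ between the 2 lines.
Gm29216: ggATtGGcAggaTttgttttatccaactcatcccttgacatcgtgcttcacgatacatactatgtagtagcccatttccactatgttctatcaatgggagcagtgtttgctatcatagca
mt-Co1: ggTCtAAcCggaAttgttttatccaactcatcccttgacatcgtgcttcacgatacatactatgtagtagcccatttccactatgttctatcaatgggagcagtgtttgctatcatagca
Beyond the last capital the lines were identical, as were the remaining bases of Gm29216. The start of Gm28438 (chr1:24613060-24613119, minus strand) and of mt-Nd3 (chrMT:9459-9518, plus strand) is shown for the only difference inside a fully copied gene, with the differing base in capitals.
Gm28438: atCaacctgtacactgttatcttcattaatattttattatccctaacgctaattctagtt
mt-Nd3: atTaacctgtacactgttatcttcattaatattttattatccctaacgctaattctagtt
The first 150 bases of Gm28437 (chr1:24613822-24613971, minus strand) and of mt-Co3 (chrMT:8607-8756, plus strand) are shown for a pair with no difference, and so without capitals.
Gm28437: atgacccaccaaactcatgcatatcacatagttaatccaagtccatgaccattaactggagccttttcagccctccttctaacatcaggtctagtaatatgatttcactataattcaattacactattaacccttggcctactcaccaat
mt-Co3: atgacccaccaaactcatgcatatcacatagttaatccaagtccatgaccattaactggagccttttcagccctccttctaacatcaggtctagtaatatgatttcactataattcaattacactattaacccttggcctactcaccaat
The copy held different shares of the mitochondrial genes. In windows of 100 bases, 99.5% of those in mt-Co2, 99.5% in mt-Atp6 and 99.9% in mt-Co3 had an identical stretch in the copy. The share was 97.6% in mt-Nd3 and 98.5% in mt-Nd4l. It was 60.8% in mt-Nd4 and 26.3% in mt-Co1, of which the copy held 63.6% and 31.3% of the bases. The deposited values are counts from the authors' mapping, and how reads with several matches were handled is not given in the sources used here. Counts of these genes are therefore values of the counting as it was done, and transcription of chromosome 1 and of the mitochondrial genome cannot be told apart in them.

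The libraries were of similar depth, with 19309312 to 20470065 counts per heart and at least 1 count on 21234 to 22515 genes. Hearts of one genotype differed by more than counting error, with a mean chi-square per gene of 6.93 to 13.3 over 6 pairs of hearts, so each was treated as a replicate. All 6 cardiomyocyte markers were detected and their counts scaled to library size (CPM) summed to 44402 to 56636 per heart. Mitochondrially encoded genes took 23.9% ± 0.476 (SD, n = 3) of all counts in α1r/rα2s/s hearts and 25.4% ± 0.492 (SD, n = 3) in α1s/sα2s/s hearts, with no overlap. In whole-heart RNA, fewer cells of a type and less RNA per cell cannot be told apart.

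Gm29216 had 11529, 15346 and 3852 counts in the α1r/rα2s/s hearts of mice 368, 369 and 370. It had 2580, 4307 and 2821 counts in the α1s/sα2s/s hearts of mice 379, 380 and 381. The counts were high in 2 hearts, both of them controls, while the third control heart lay within the range of the other genotype, so that the genotypes overlapped. The 95% exact Poisson interval, which covers counting error only, was 15104 to 15591 in mouse 369 and 2481 to 2682 in mouse 379. In CPM the level was 492 ± 274 (SD, n = 3) in α1r/rα2s/s hearts and 167 ± 52.4 (SD, n = 3) in α1s/sα2s/s hearts. The log2 fold change of α1s/sα2s/s over α1r/rα2s/s in edgeR was -1.56 (SE 0.33). DESeq2 gave the same value with an SE of 0.58, and its SE was larger for the other genes of the copy too. In edgeR the log2 fold change was -0.21 when mice 368 and 369 were both left out, an alternative chosen after seeing the data.

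mt-Co1, the mitochondrial match of Gm29216, had 1881542 to 2021794 counts in α1r/rα2s/s hearts and 1966831 to 2185046 in α1s/sα2s/s hearts. Gm29216 was therefore a small fraction of its source, between 0.124% in mouse 379 and 0.816% in mouse 369. In CPM mt-Co1 did not overlap between the genotypes, with 94522 ± 6208 (SD, n = 3) in α1r/rα2s/s hearts and 106829 ± 5632 (SD, n = 3) in α1s/sα2s/s hearts. Of all tested genes, 20.0% did not overlap. The log2 fold change of mt-Co1 was 0.18 (SE 0.08, adjusted p = 0.333 in edgeR's quasi-likelihood test). The highest heart of mt-Co1 was 1.26 times its lowest, against 5.72 times for Gm29216. The order of the hearts also differed, since the lowest mt-Co1 level was in mouse 369, the heart with the highest Gm29216.

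**Figure D1:**
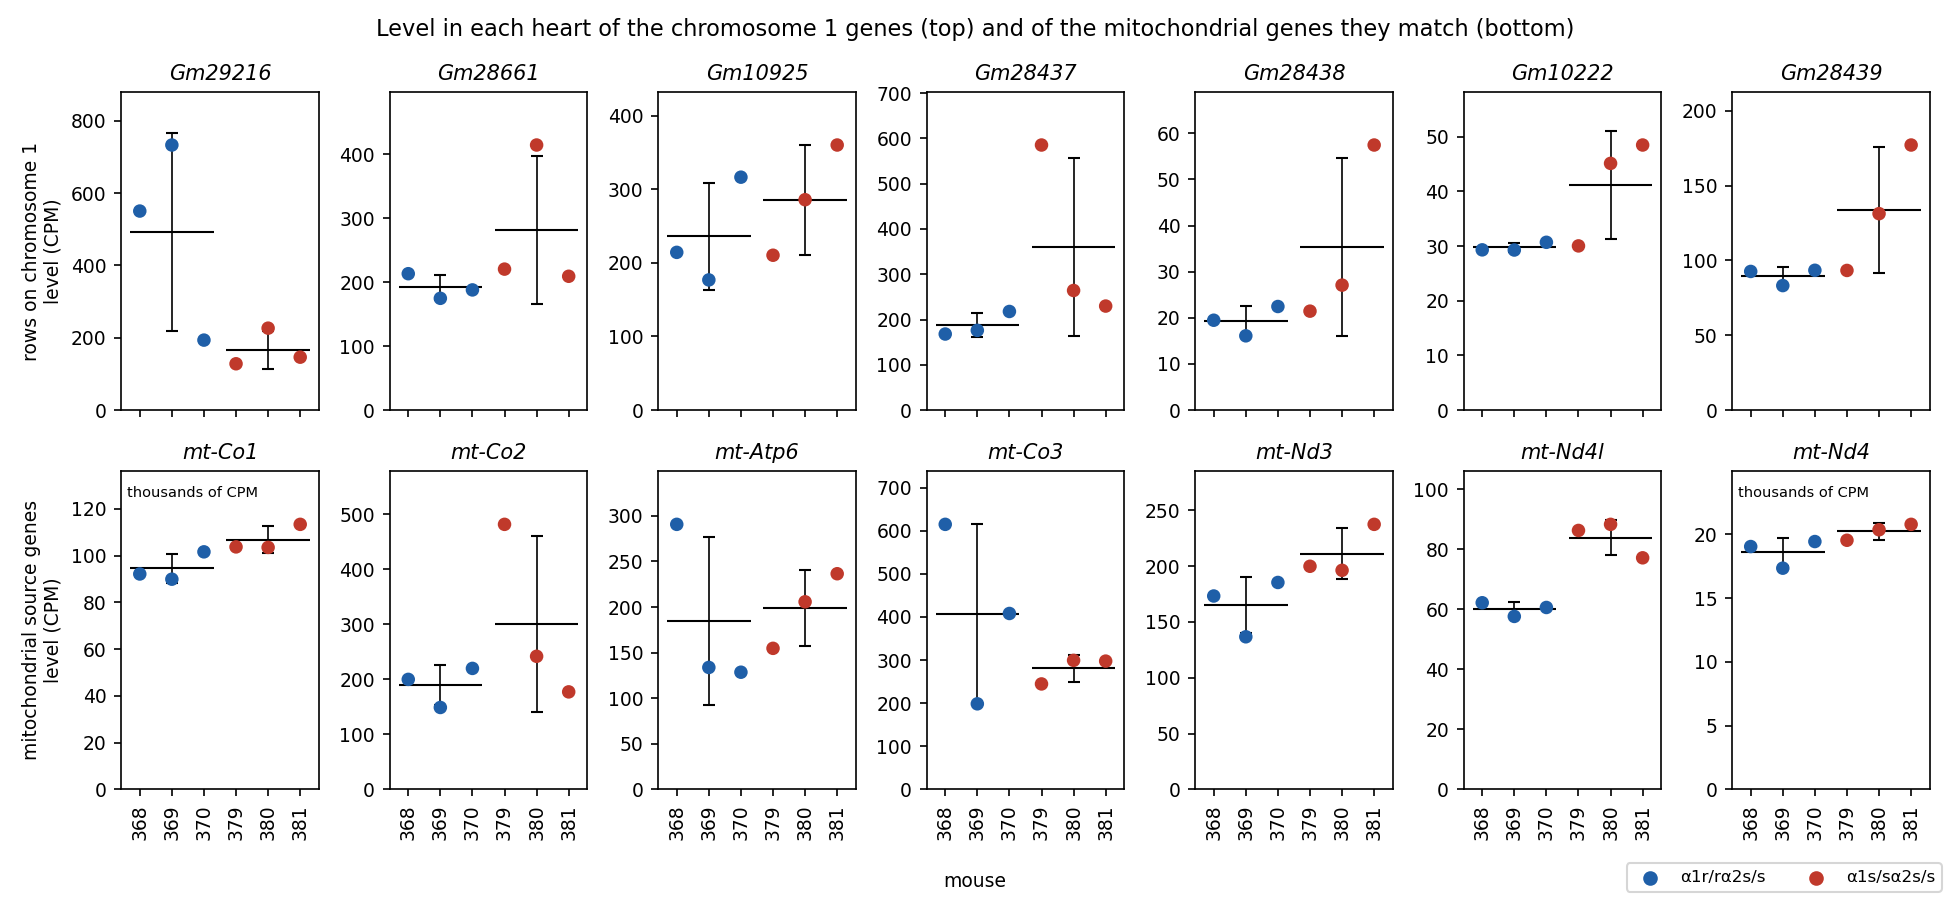
Level in CPM (y axes, each panel with its own scale from 0, a larger unit where marked) of the 7 chromosome 1 genes (top) and of the mitochondrial genes they match (bottom) in each mouse (x axis), in blue for α1r/rα2s/s and red for α1s/sα2s/s, with horizontal lines at the mean and bars of 1 SD (n = 3). Gm29216 is high in mice 368 and 369, and Gm28661, Gm28437 and Gm28438 each have a single heart above the rest, in mice 380, 379 and 381.

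The genes matching the other subunits of cytochrome c oxidase each had a single high heart. Gm28661, the match of mt-Co2, had 4470, 3661 and 3743 counts in α1r/rα2s/s hearts and 4443, 7885 and 4037 counts in α1s/sα2s/s hearts (mice in the order above). Mouse 380 stood at 1.88 times the next heart in CPM, and the other 5 hearts formed one range in which the genotypes overlapped. The level was 192 ± 19.6 CPM (SD, n = 3) in α1r/rα2s/s hearts and 282 ± 115 CPM (SD, n = 3) in α1s/sα2s/s hearts, a log2 fold change of 0.55 (SE 0.19). Gm28437, the match of mt-Co3, had 3518, 3686 and 4335 counts in α1r/rα2s/s hearts and 11791, 5021 and 4429 in α1s/sα2s/s hearts. Here mouse 379 was the high heart, at 2.22 times the next. Gm28437 was the only one of the 7 whose CPM did not overlap between the genotypes, all α1s/sα2s/s hearts being higher. Of all tested genes, 20.0% did not overlap, and in 9.98% the α1s/sα2s/s hearts were the lower ones. Its level was 187 ± 26.7 CPM (SD, n = 3) in α1r/rα2s/s hearts and 359.8 ± 196 CPM (SD, n = 3) in α1s/sα2s/s hearts, a log2 fold change of 0.94 (SE 0.24). Without mouse 379 the log2 fold change was 0.40.

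The mitochondrial partners of these genes had single high hearts as well, but not in the mice where their own copies were high. mt-Co2 had 4185, 3115 and 4374 counts in α1r/rα2s/s hearts and 9695, 4595 and 3415 in α1s/sα2s/s hearts. Its high heart was mouse 379, where Gm28661 was near its median, so that Gm28661 was 45.8% of mt-Co2 in mouse 379 and 172% in mouse 380. mt-Co3 had 12878, 4156 and 8123 counts in α1r/rα2s/s hearts and 4928, 5690 and 5738 in α1s/sα2s/s hearts. It was highest in mouse 368, the heart in which Gm28437 was lowest in CPM. Gm28437 was 27.3% of mt-Co3 in mouse 368 and 239% in mouse 379, the widest range of a ratio among the 7 pairs (8.76-fold). The log2 fold change was 0.66 (SE 0.25) for mt-Co2, and 0.15 without mouse 379. It was -0.54 (SE 0.25) for mt-Co3, and -0.11 without mouse 368. When each gene of the copy was added to its mitochondrial match before the fit, an alternative chosen after seeing the data, mt-Co3 had a log2 fold change of 0.11 (SE 0.20).

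Gm10925, the match of mt-Atp6, varied without a single outlying heart. It had 4488, 3702 and 6298 counts in α1r/rα2s/s hearts and 4237, 5433 and 6943 in α1s/sα2s/s hearts. Mice 370 and 381 were highest, one from each genotype, and the genotypes overlapped. The level was 236 ± 72.2 CPM (SD, n = 3) in α1r/rα2s/s hearts and 285 ± 74.9 CPM (SD, n = 3) in α1s/sα2s/s hearts, a log2 fold change of 0.28 (SE 0.19), which ran from 0.07 without mouse 381 and 0.11 without mouse 369 to 0.55 without mouse 370. mt-Atp6 had 6088, 2800 and 2558 counts in α1r/rα2s/s hearts and 3116, 3911 and 4560 in α1s/sα2s/s hearts. Mouse 370, high for Gm10925, was the lowest heart for mt-Atp6, and the ratio of the 2 genes went from 73.7% in mouse 368 to 246% in mouse 370. The log2 fold change of mt-Atp6 was 0.11 (SE 0.23), and lay between -0.09 (without mouse 370) and 0.60 (without mouse 368) when 1 heart was left out.

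The genes matching complex I subunits were all highest in mouse 381. Gm28438, the match of mt-Nd3, had 408, 337 and 447 counts in α1r/rα2s/s hearts and 432, 515 and 1108 in α1s/sα2s/s hearts. Mouse 381 stood at 2.12 times the next heart, and mouse 379 lay within the control range. The level was 19.3 ± 3.18 CPM (SD, n = 3) against 35.3 ± 19.4 CPM (SD, n = 3) in α1s/sα2s/s hearts, a log2 fold change of 0.87 (SE 0.26), which was 0.33 without mouse 381. Gm10222, the match of mt-Nd4l, had 614, 613 and 611 counts in α1r/rα2s/s hearts and 605, 858 and 935 in α1s/sα2s/s hearts. The 3 controls and mouse 379 were nearly equal, and mice 380 and 381 were higher. Its level was 29.8 ± 0.807 CPM (SD, n = 3) against 41.2 ± 9.83 CPM (SD, n = 3) in α1s/sα2s/s hearts, a log2 fold change of 0.47 (SE 0.14). Gm28439, the match of mt-Nd4, had 1941, 1742 and 1860 counts in α1r/rα2s/s hearts and 1880, 2496 and 3416 in α1s/sα2s/s hearts. The hearts were ordered in the same way, with mouse 379 among the controls and mice 380 and 381 above them. Its level was 89.8 ± 5.70 CPM (SD, n = 3) against 134 ± 42.0 CPM (SD, n = 3) in α1s/sα2s/s hearts, a log2 fold change of 0.58 (SE 0.16). It was 0.32 without mouse 381.

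The mitochondrial genes of complex I subunits showed less spread between hearts than these copies. mt-Nd3 had 2862 to 3690 counts in α1r/rα2s/s hearts and 3731 to 4578 in α1s/sα2s/s hearts. mt-Nd4l had 1206 to 1302 counts and 1487 to 1737 counts, and mt-Nd4 had 362967 to 398678 and 386818 to 400530. None of the 3 overlapped between the genotypes in CPM, each being higher in α1s/sα2s/s hearts, as were 1488 of the 14866 tested genes. Their log2 fold changes were 0.36 (SE 0.10), 0.48 (SE 0.08) and 0.12 (SE 0.08). mt-Nd4l was the only one of the 7 mitochondrial matches called by edgeR's quasi-likelihood test (adjusted p under 0.05), where 1.44% of all tested genes were. Gm28438 was 10.7% to 13.8% of mt-Nd3 in 5 hearts and 24.2% in mouse 381. Gm28439 was 0.478% to 0.487% of mt-Nd4 in the 3 controls and mouse 379, 0.645% in mouse 380 and 0.853% in mouse 381. Gm10222 was between 34.8% of mt-Nd4l in mouse 379 and 62.9% in mouse 381.

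**Figure D2:**
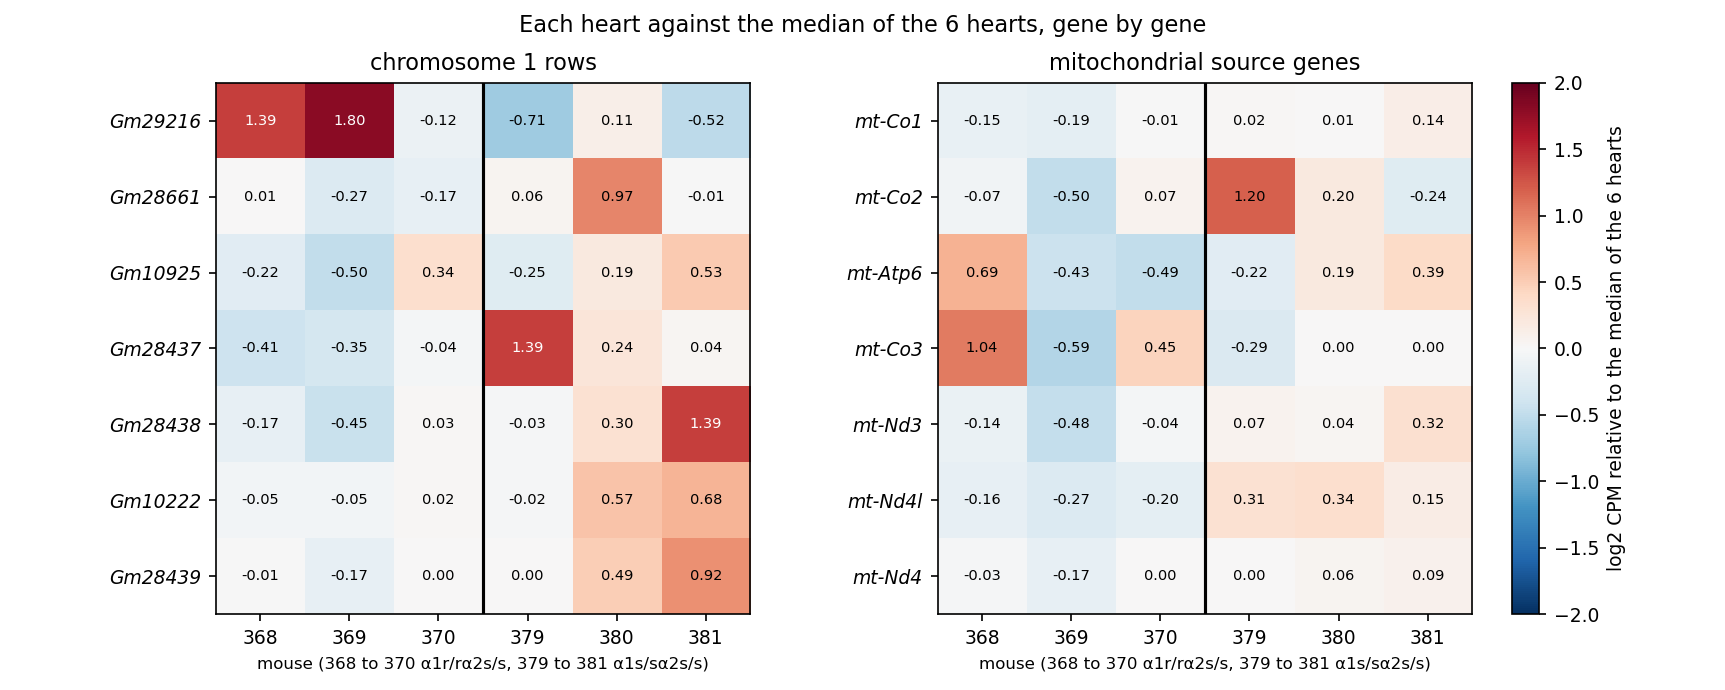
Log2 CPM of each chromosome 1 gene (left) and of its mitochondrial match in the same line (right) in each mouse, relative to the median of the 6 hearts, with red above and blue below the median and a vertical line between the genotypes. Gm29216 is 1.39 and 1.80 above its median in mice 368 and 369, Gm28437 1.39 above in mouse 379 and Gm28438 1.39 above in mouse 381, in hearts where the mitochondrial match is at most 0.32 above its own median.

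Adding a copy to its match gave a narrower spread than either alone in 4 of 7 pairs. A sum cannot spread wider than the wider of its 2 genes, and sums of unrelated genes were not compared, so nothing is concluded from this count. The sum of Gm28437 and mt-Co3 had a highest heart 2.22 times its lowest, against 3.49 and 3.10 for the 2 genes alone. For Gm28661 and mt-Co2 the sum gave 2.17, against 2.37 and 3.23. For Gm10925 and mt-Atp6 it gave 1.92, against 2.04 and 2.26. In these 3 pairs the copy and its match were of similar level. In the pairs of mt-Co1 and mt-Nd4 the match made up nearly all of the sum. There the sum gave 1.25 for mt-Co1, just under the 1.26 of the match alone, and 1.20 for mt-Nd4, equal to the match at this precision. The sum gave 1.93 for Gm28438 and mt-Nd3, wider than the 1.74 of mt-Nd3, and 1.54 for Gm10222 and mt-Nd4l, close to the 1.53 of mt-Nd4l.

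Summed over the 7 genes, the copy took 0.129% ± 0.0217 (SD, n = 3) of all counts in α1r/rα2s/s hearts and 0.127% ± 0.0107 (SD, n = 3) in α1s/sα2s/s hearts. In CPM this was 1246 ± 167 (SD, n = 3) and 1304 ± 84.1 (SD, n = 3), and the genotypes overlapped. The sum was 1.10% ± 0.212 (SD, n = 3) of the counts of the 7 mitochondrial matches in α1r/rα2s/s hearts and 1.02% ± 0.105 (SD, n = 3) in α1s/sα2s/s hearts, also with overlap. Within these near-equal sums the members differed in opposite directions. Gm29216 made up 42.8%, 52.8% and 18.2% of the copy's counts in α1r/rα2s/s hearts and 9.94%, 16.2% and 11.9% in α1s/sα2s/s hearts. Without it, the other 6 genes summed to 754 ± 107 CPM (SD, n = 3) in α1r/rα2s/s hearts and 1137 ± 47.7 CPM (SD, n = 3) in α1s/sα2s/s hearts, with no overlap. This sum leaves out the gene whose genotype values led to the window, so the lack of overlap is a description only. Among single tested genes, 20.0% did not overlap. In all, 6 of the 7 genes had a log2 fold change above 0, where 48.4% of tested genes did. Another gene led in other hearts, with Gm28437 at 45.4% of the copy's counts in mouse 379 and Gm28661 at 29.7% in mouse 380.

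**Figure D3:**
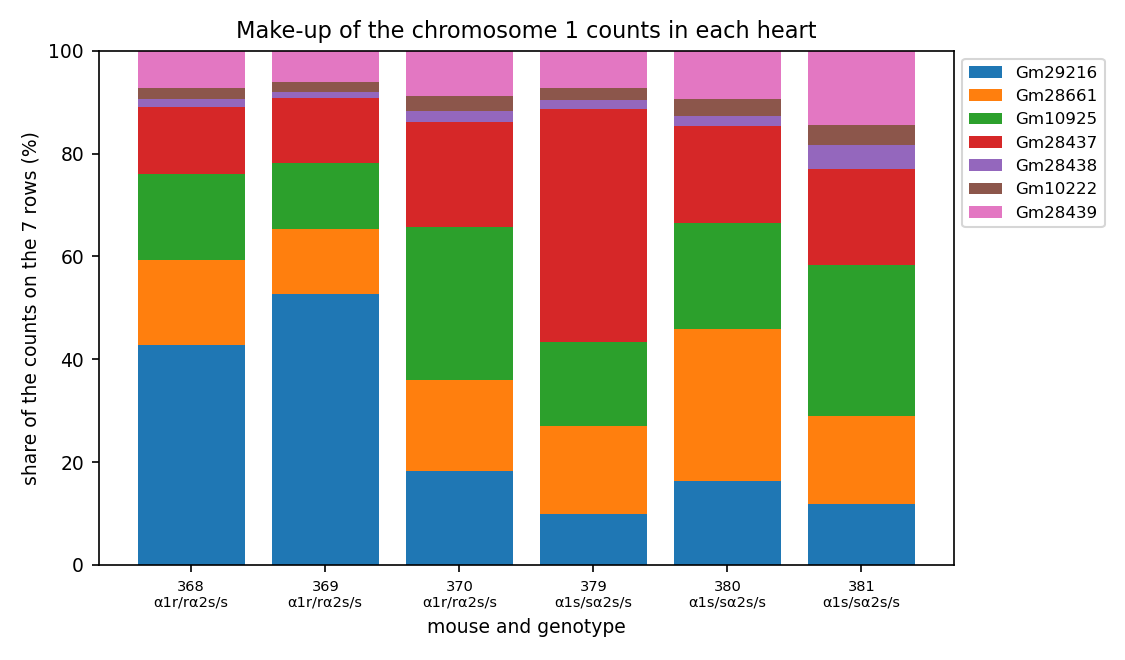
Share of the copy's counts (y axis, percent) taken by each of the 7 genes in each mouse (x axis, with its genotype), as stacked bars that start at 0 and sum to 100. Gm29216 takes 42.8% and 52.8% in mice 368 and 369 and between 9.94% and 18.2% in the other 4 hearts, and Gm28437 takes 45.4% in mouse 379.

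The 5 genes of the copy whose mitochondrial match lies wholly inside the copied stretch (Gm28661, Gm10925, Gm28437, Gm28438 and Gm10222) summed to 664 ± 103 CPM (SD, n = 3) in α1r/rα2s/s hearts and 1003 ± 86.4 CPM (SD, n = 3) in α1s/sα2s/s hearts. Their matches summed to 1006 ± 333 CPM (SD, n = 3) and 1075 ± 79.9 CPM (SD, n = 3). The copies thus stood at 70.1% ± 19.4 (SD, n = 3) of their matches in α1r/rα2s/s hearts and at 93.4% ± 6.37 (SD, n = 3) in α1s/sα2s/s hearts. The genotypes did not overlap but lay close, at 48.1% to 84.9% and 88.2% to 100.5%. The lowest share was in mouse 368, where mt-Co3 had 12878 counts. These sums also leave out Gm29216, so the lack of overlap is a description only. Among single tested genes, 20.0% did not overlap. Copies and matches together came to 1671 ± 380 CPM (SD, n = 3) and 2078 ± 152 CPM (SD, n = 3), with overlap.

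Levels along the mitochondrial genome were compared per length, as CPM per kilobase (kb) of gene, averaged over the 6 hearts. The 6 protein genes inside the copied stretch had low levels, from 38.8 for mt-Atp8 to 541 for mt-Nd3, with a median of 319.6. The 5 protein genes outside it, mt-Nd1, mt-Nd2, mt-Nd5, mt-Nd6 and mt-Cytb, had 14354 to 31742, with a median of 17506. The lowest of these was 26.5 times the highest inside the stretch, and the medians differed 54.8-fold. Of the 2 genes that are partly inside, mt-Co1 had 65162, above every gene outside, and mt-Nd4 had 14084, just under the lowest of them. Whether reads of the genes inside were left uncounted for matching both places was not tested. Copies of fully covered genes were close to their matches in 3 pairs. Gm28661 had 348 CPM per kb beside 358 for mt-Co2, Gm10925 had 384 beside 281 for mt-Atp6, and Gm28437 had 349 beside 439 for mt-Co3. The other two were lower than their matches. Gm28438 had 79.2 beside 541 for mt-Nd3, and Gm10222 had 121 beside 242 for mt-Nd4l. Gm29216 was the highest of the 7 per length, at 670.1 CPM per kb, and Gm28439 stood at 128. The order of the 7 from high to low was Gm29216, Gm10925, Gm28437, Gm28661, Gm28439, Gm10222 and Gm28438, and the ranges over hearts of the first 4 overlapped one another, as did those of Gm28439, Gm10222 and Gm28438.

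**Figure D4:**
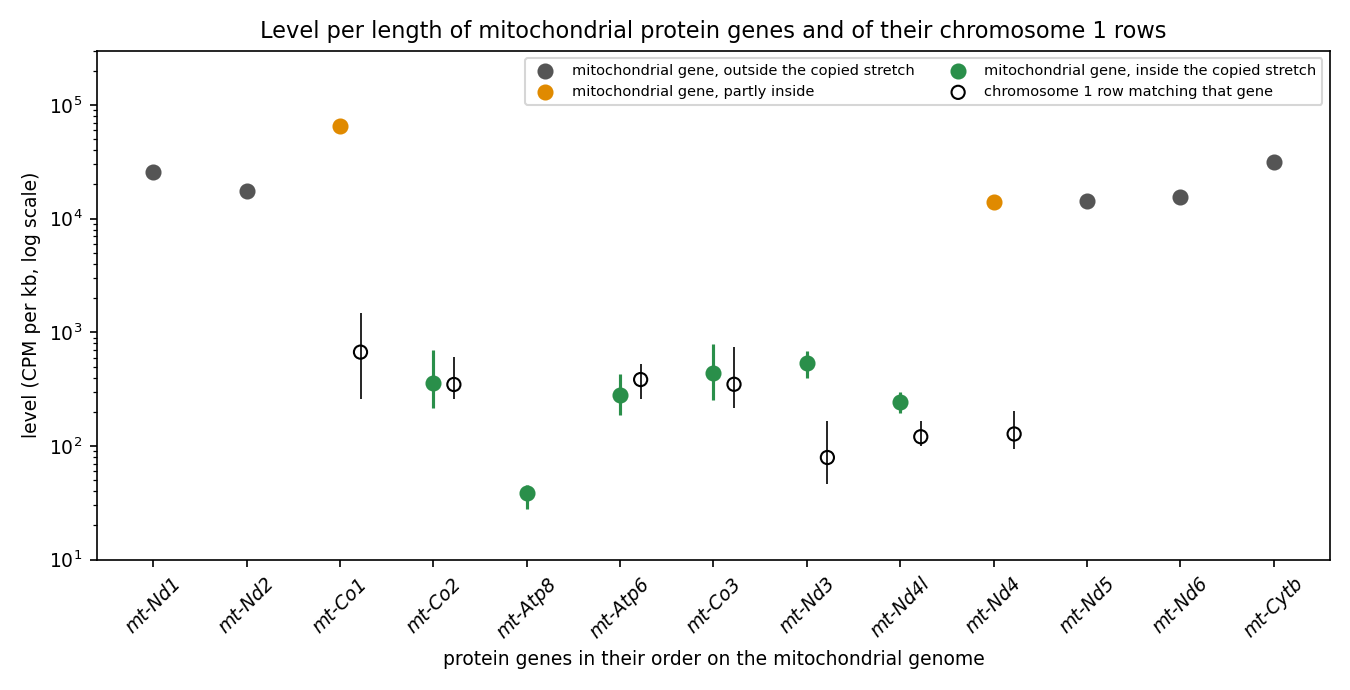
Mean level over the 6 hearts (y axis, CPM per kb, log scale) of the 13 mitochondrial protein genes in their order on the mitochondrial genome (x axis), coloured by their place relative to the copied stretch, with the matching chromosome 1 gene as an open circle and vertical lines from the lowest to the highest heart. Genes inside the stretch lie between 38.8 and 541, genes outside it between 14354 and 31742, and the open circles between 79.2 and 670.1.

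Among the protein genes, the spread between hearts was also wider inside the stretch. The highest heart was 1.53 to 3.23 times the lowest for the 6 protein genes inside the stretch, 1.19 to 1.26 times for the 5 outside, and 1.20 to 1.26 times for the 2 partly inside. The tested RNA genes did not show this difference, but only 2 of them lie inside. Both ribosomal RNA genes lie outside and had 1.80, and the tested transfer RNA genes had 1.33 to 1.65 inside (2 genes). Of the 15 tested transfer RNA genes outside, mt-Tt had 10.7, but with only 3 to 31 counts per heart. The next highest was mt-Ta at 2.35 (35 to 79 counts), and the lowest, mt-Tp, lay under the 1.33. mt-Atp8, which lies in the stretch but has no gene of its own on chromosome 1 in the annotation, had 115 to 182 counts and a ratio of 1.64. Transfer RNA genes inside the stretch that have no annotated copy were also counted. mt-Ts1, mt-Td and mt-Tk had 0 to 4 counts per heart, mt-Tg had 283 to 448 and mt-Tr 173 to 223. The nearest transfer RNA genes outside, mt-Ty upstream and mt-Th downstream, had 810 to 1175 and 685 to 972 counts.

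Spread between hearts was also compared with genes of similar depth, namely the 7188 tested genes with a mean of at least 300 counts, among them all 7 of the copy. The median gene had a highest heart 1.24 times its lowest, and 108 genes (1.50%) were over 2. Of the 7 genes of the copy, 6 were over 2. Ranked by this ratio, Gm29216 was number 10 of the 7188, Gm28438 number 15 (3.57) and Gm28437 number 16 (3.49). Gm28661, Gm28439 and Gm10925 were numbers 55, 88 and 103, with ratios of 2.37, 2.13 and 2.04. Gm10222 had the narrowest spread of the 7, at 1.66 and number 329. A single heart more than 1.4 times the next was found in 0.515% of the genes, and in 3 of the 7. These ratios take in both genotypes and so include the genotype values that led to the choice of Gm29216.

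**Figure D5:**
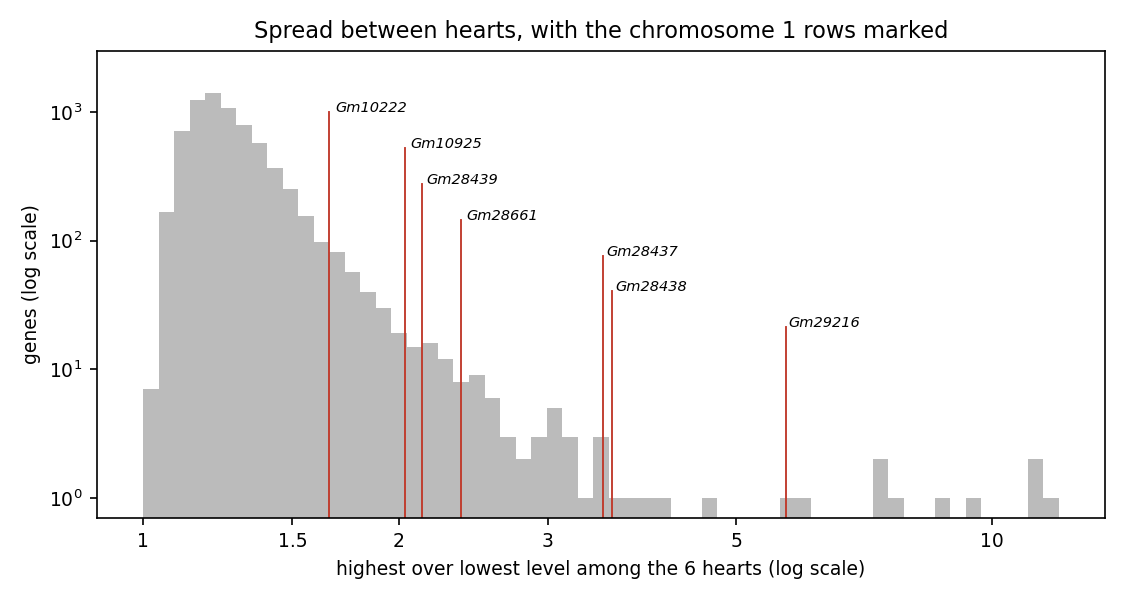
Histogram of the highest over the lowest CPM among the 6 hearts (x axis, log scale) for 7188 genes with a mean of at least 300 counts (y axis, number of genes, log scale), with red lines at the 7 genes of the copy, drawn at different heights so that the names can be read. The median gene is at 1.24, while Gm29216 is at 5.72 and Gm10222, the lowest of the 7, at 1.66.

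Other nuclear pseudogenes that match mitochondrial genes were also counted. Of 13019 pseudogenes of the table with a transcript sequence outside the window, 8 matched a mitochondrial gene at 90% identity or more over at least 200 bases, and 5 of them had over 3 counts in some heart. Gm13340 on chromosome 2 (chr2:22588103-22589647) matched the whole of mt-Co1 at 97.6% identity. It had 1530, 1564 and 1503 counts in α1r/rα2s/s hearts and 1499, 1702 and 1814 in α1s/sα2s/s hearts. Mice 368 and 369, high for Gm29216, were within the range of the other hearts in counts of Gm13340. In CPM mouse 368 was the lowest heart for Gm13340, at 73.0, and mouse 369 had 74.7. The highest heart, mouse 381, had 94.1 CPM, 1.29 times the lowest. Per length Gm13340 had 51.9 CPM per kb, against 670.1 for Gm29216 and 79.2 for Gm28438, the lowest of the 7. Its neighbours Gm13341 (mt-Co2, 95.91% identity) and Gm13339 (mt-Nd2, 96.67% identity) had 262 to 386 and 33 to 87 counts. On chromosome 4, Gm11408 (mt-Nd6) had 6 to 22 counts, and Gm11410 (mt-Cytb) had 4 counts in mouse 368 and 0 in the other hearts.

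Genes whose pattern over the hearts was most like that of Gm29216 were sought among the 4391 genes outside the window whose mean log2 CPM reached 5. The measure was the root-mean-square difference of log2 CPM after subtracting each gene's mean over the 6 hearts. Tfrc, the transferrin receptor, was closest, with a difference of 0.515, where Gm29216 itself deviated from its own mean by 0.945. Ccnd1 (cyclin D1), Myl4 (an atrial myosin light chain), F13a1 (coagulation factor XIII A chain) and Dab2 (an endocytic adaptor) followed, at 0.645, 0.649, 0.675 and 0.679. mt-Co1 was number 3950 of the 4391, at 1.05. In the 2 hearts with high Gm29216, Tfrc was 0.51 and 1.15 above its mean, but it was also 0.54 above in mouse 370, where Gm29216 was at -0.44.

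Marker genes of other cell types were read in the same hearts. The 4 atrial markers were all detected and summed to 191, 245.5 and 157 CPM in mice 368, 369 and 370, and to 139 to 166 CPM in α1s/sα2s/s hearts. The 4 macrophage markers summed to 128, 172 and 106 CPM in mice 368, 369 and 370 and to 91.9 to 114 CPM in α1s/sα2s/s hearts. In both lists mice 369 and 368 were the highest hearts, as for Gm29216. The endothelial list had the same hearts highest, at 858 and 810 CPM, but of its genes only Kdr kept this order. Pecam1 and Cdh5 were higher in mice 379 and 380 than in mouse 368, and Tek was higher in mouse 379. Not every macrophage gene kept this order, since Csf1r was higher in mouse 379 and Cd68 in mouse 380 than in mouse 368. The part of these cells in the Gm29216 counts was not tested. The 5 erythroid markers ranged from 536 to 1272 CPM in α1r/rα2s/s hearts and from 401 to 3187 CPM in α1s/sα2s/s hearts. Their highest heart was mouse 380, which was also the highest for Gm28661, and their part in it was not tested. Endothelial, fibroblast and adipocyte lists overlapped between the genotypes too, at 598 to 858, 657 to 736 and 18.8 to 23.7 CPM over all hearts, with the brown fat marker Ucp1 at 0 counts in every heart. No gene of these lists had an adjusted p under 0.05 in edgeR, where 6 of 30 tested marker genes had an unadjusted p under 0.05, against 14.5% of all tested genes. DESeq2 called 3 of the 28 marker genes to which it gave an adjusted p, against 3.65% of all genes given one. These were C1qa (a macrophage complement gene), Myl7 (an atrial myosin light chain) and Col1a1 (a fibroblast collagen), each with a lower mean CPM in α1s/sα2s/s hearts.

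The machinery that transcribes mitochondrial DNA and turns over its RNA was given by a list of 32 genes, all of them tested. The list holds the mitochondrial RNA polymerase Polrmt, the transcription factors Tfam and Tfb2m, and processing and decay factors such as Elac2, Pnpt1 and Lrpprc. None of the 32 was called in edgeR in either direction, and their median log2 fold change was 0.07, against -0.01 over all tested genes. An unadjusted p under 0.05 was found for 3 of them, and DESeq2 called none of the 28 to which it gave an adjusted p. The members with the smallest p were Tefm, a mitochondrial transcription elongation factor (-0.27, SE 0.11), Supv3l1, an RNA helicase of the mitochondrial degradosome (-0.20, SE 0.09), and Mterf3, a regulator of mitochondrial transcription (0.24, SE 0.11). Their adjusted p in edgeR's quasi-likelihood test were 0.246, 0.294 and 0.330. Of the genes on the mitochondrial genome, 1 of 13 protein genes, 4 of 17 tested transfer RNA genes and both ribosomal RNA genes were called higher in α1s/sα2s/s hearts, with medians of 0.13, 0.37 and 0.56, and none was called lower. Over all tested genes 0.780% were called higher and 0.659% lower.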

How the data were processed

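RNA was extracted from the whole heart of 6 mice, 3 per genotype, and sequenced by a company on an Illumina NovaSeq system. The authors deposited raw counts per gene, without normalization. The submitters' processing notes name fastp, STAR, featureCounts and the build mm10, while versions, strand setting and the handling of reads with several matches are not given in the sources used here. A second deposited table holds the authors' own DESeq2 comparison (mean, log2 fold change, standard error, statistic, p and adjusted p) and was not used.

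Genotypes were taken from the labels, and each mouse was 1 replicate. Counts were analysed in R 4.3.3 with edgeR 4.0.16, using TMM normalization, filterByExpr (minimum count 10, minimum total 15), the quasi-likelihood test and Benjamini-Hochberg adjustment over all 14866 tested genes, with a threshold of 0.05. Its biological coefficient of variation was 11.1%. The SE given for an edgeR log2 fold change is the size of that change divided by the square root of the quasi-likelihood F. Log2 CPM used a prior count of 2. DESeq2 1.42.0, other normalization factors, other filters and leaving out hearts were the alternatives. The fit was tested on simulated data.

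Transcripts and positions were those of GENCODE M21 (GRCm38), with the same start and end as the count table for all 7 genes of the copy and all 37 mitochondrial genes. Each gene of the copy was aligned locally to its mitochondrial match with Biopython 1.88, and other nuclear pseudogenes were searched with BLAST 2.17.0 against the mitochondrial transcripts, in place of a search of the genome. The genome between annotated genes was not analysed here. Named were all genes of the window, the mitochondrial gene each matches, the genes in and next to the copied stretch, the 5 other nuclear copies with the highest mean count that had over 3 counts in a heart, the 5 genes most like Gm29216, and the 3 smallest p of the transcription list. The genes of the copy and the lists were chosen with earlier results of these data known. The smallest two-sided p of an exact permutation test with 3 hearts on each side is 0.1.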

Additional observations from a re-analysis of the deposited data

How the results depend on the processing

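Over all tested genes, 214 had an adjusted p under 0.05 in edgeR. DESeq2 gave 403, no low-count filter 618, and leaving out 1 heart at a time 80 to 158. Leaving out mice 368 and 369 together, chosen after seeing the data, gave 74. The 7 genes of the copy were chosen on this contrast, so calls among them are counts from which nothing is read. There was 1 in edgeR (Gm29216, where 1.44% of all tested genes were called) and 1 in DESeq2 (Gm10222, where 3.65% of genes were). Without a low-count filter there were 7, where 618 genes were called in all. In that fit the SE of Gm29216 was 0.08, against 0.33 in the main fit. With 1 heart left out there were 0 to 3, where 80 to 158 of all tested genes were called. Gm29216 was not among them without mouse 368, 369, 379 or 381. Those called there were Gm28438, Gm10222 and Gm28439 without mouse 379 and Gm28437 without mouse 381. The log2 fold change of Gm29216 ran from -1.94 (without mouse 370) to -0.21 (without mice 368 and 369). Over the genes of the copy, 91 fold changes were recomputed, of which 90 kept direction and 1 changed sign, Gm10925 at -0.14 without mice 368 and 369. Over the mitochondrial matches, 87 of 98 kept direction and side of the threshold, 1 call was lost, 6 were gained and 4 changed sign. These were mt-Atp6 at -0.07, -0.09 and -0.03 without mouse 369, 370 or 381 (its range with 1 heart left out was -0.09 to 0.60), and mt-Co3 at 0.11 when the copies were added to their matches. Without mouse 369, mt-Co3 was called in edgeR, at -0.86 (adjusted p = 0.00498). The log2 ratio of the genotypes in the copy's sum over its matches was -0.11, and became 0.48 without Gm29216 and 0.21 as a median of the ratios per gene. The summed level stayed within the spread between hearts, from -0.03 to 0.15 on the log2 scale. The causes of these shifts were not tested. With 3 hearts per genotype, leaving out a single heart brought down the size of the log2 fold change of Gm28661 (0.17 without mouse 380), Gm10925 (0.07 without mouse 381), Gm28437 (0.40 without mouse 379), Gm28438 (0.33 without mouse 381), mt-Co2 (0.15 without mouse 379) and mt-Co3 (-0.11 without mouse 368). No paired analysis was possible because the labels name each mouse by a number of its own, and the genotypes share none.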
